A study of Mus musculus with 24 samples.

Results

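Matrix metalloproteinases and their tissue inhibitors were followed in mouse liver across 5 diets. The members were taken by gene symbol and number 10 of the 34436 gene rows in the count table: the proteases Mmp2, Mmp8, Mmp9, Mmp12, Mmp13, Mmp14 and Mmp19 and the inhibitors Timp1, Timp2 and Timp3. Whole liver RNA was sequenced from wild-type C57BL/6 mice that were placed on a diet at 8 to 10 weeks of age and kept on it for 8 weeks. The diets were normal chow (NC, 4 libraries), high sucrose (HS, 5), high sucrose with 2% cholesterol (HS_Chol2%, 3), 2% cholesterol with cholic acid (Chol2%_CA, 4) and cholic acid, a primary bile acid, without added cholesterol (CA, 4). No gene was altered in any group, and the labels do not give the sex of the animals. A sixth labelled diet, which joined sucrose, cholesterol and cholic acid, was not analysed here. Library numbers are those of the table, which start at 0. The labels number the samples but do not say that each came from a separate animal, so p-values measure the spread between these libraries.

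Totals ran from 6110484 to 10244277 reads per library, and the members together held between 918 and 3135 of them. Levels are given as CPM, reads of a gene per 1000000 reads of effective library size, and errors beside them are SD between libraries. The liver label was met: all 8 hepatocyte markers had reads in every diet. In 8 libraries (NC_3, HS_0, HS_1, HS_2, HS_Chol2%_0, Chol2%_CA_0, Chol2%_CA_1 and CA_0) counts fell with transcript length relative to the mean of all libraries, and in the other 12 they rose. The 3 HS_Chol2% libraries stood apart in reads from light-strand mitochondrial tRNA genes, with 673 to 900 per 1000000 heavy-strand mRNA reads against 8.95 to 83.4 in the other 17. In bulk tissue, fewer cells of a type and less RNA per cell cannot be told apart.

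Matrix metalloproteinases are zinc proteases that are made as inactive proenzymes and cut collagens, elastin, laminin and other matrix and surface proteins once the propeptide is removed. Tissue inhibitors of metalloproteinases bind the active site and block it, and Timp2 also helps the membrane-bound protease Mmp14 to activate the proenzyme of Mmp2. In liver the family is known for the turnover of scar matrix, with stellate cells, macrophages and neutrophils among its sources.

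The 250 bases before the RefSeq start (GRCm38.p6, printed 5′ to 3′ on the gene's strand) are shown for Mmp13, Mmp12 and Timp1, which had among the highest ratios of reads between Chol2%_CA and NC. Mmp12 has a pair of RefSeq starts. Capitals mark the AP-1 motif TGANTCA, searched on both strands, where N is any base.
Mmp13, chr9:7272264-7272513, plus strand: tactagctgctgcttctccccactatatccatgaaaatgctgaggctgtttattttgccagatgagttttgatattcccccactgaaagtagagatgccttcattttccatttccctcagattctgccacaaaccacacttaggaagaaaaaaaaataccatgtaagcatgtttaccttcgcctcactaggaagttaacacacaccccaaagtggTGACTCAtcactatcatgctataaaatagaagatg
Mmp12, upstream start, chr9:7344147-7344396, plus strand: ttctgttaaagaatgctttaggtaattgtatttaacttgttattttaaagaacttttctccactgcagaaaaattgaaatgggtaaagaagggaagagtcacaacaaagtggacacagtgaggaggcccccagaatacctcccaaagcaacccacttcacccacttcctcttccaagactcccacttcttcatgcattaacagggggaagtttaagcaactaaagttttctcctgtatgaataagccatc
Mmp12, downstream start, chr9:7347124-7347373, plus strand: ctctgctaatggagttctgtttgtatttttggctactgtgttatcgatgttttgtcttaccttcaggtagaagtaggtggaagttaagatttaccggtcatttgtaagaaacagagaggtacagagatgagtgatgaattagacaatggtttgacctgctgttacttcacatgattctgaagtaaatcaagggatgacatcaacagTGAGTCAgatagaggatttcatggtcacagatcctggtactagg
Timp1, chrX:20869916-20870165, plus strand: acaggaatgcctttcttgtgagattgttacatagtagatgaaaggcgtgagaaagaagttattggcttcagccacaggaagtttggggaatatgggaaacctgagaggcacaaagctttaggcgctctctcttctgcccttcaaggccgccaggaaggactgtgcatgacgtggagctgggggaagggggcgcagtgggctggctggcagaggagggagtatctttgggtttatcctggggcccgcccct
The AP-1 letters began 35 bases before the Mmp13 start and 44 bases before the downstream Mmp12 start, and were not found in the upstream Mmp12 window or in the Timp1 window. Of the 10 members, 7 were matched in the promoter table, with 8 windows, and 2 of these windows held the motif. The same letters occurred in 6.75% of all 32851 windows of this length. The ETS core AGGAAG, on either strand and not overlapping the AP-1 letters, was in 6 of the 8 windows and in 29.5% of all windows. The TATAAA box, on either strand, was in 1 of the 8, that of Mmp13, and in 12.4% of all. A motif match describes letters and is not a binding site.

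Levels can be compared between genes only per length, so CPM was divided by the kilobases of annotated exon (GENCODE M21, GRCm38). On that scale Mmp19, a soluble protease of basement membrane proteins, was the most abundant member in chow liver, with 23.9 ± 4.21 CPM per kb (SD, n = 4). Mmp14 followed with 7.61 ± 1.44, Timp2 with 5.17 ± 1.17, Timp3 with 3.19 ± 1.11 and Mmp2 with 0.951 ± 0.387 CPM per kb. Timp1, Mmp9, Mmp13 and Mmp12 had 0.154 CPM per kb or less, and Mmp8 had no reads in chow. The chow ranges of Mmp14 and Timp2, of Timp2 and Timp3, and of each neighbouring pair from Timp1 to Mmp12 overlapped. In Chol2%_CA the order was Mmp19 at 24.3 ± 3.38, Mmp14 at 16.2 ± 7.25, Timp2 at 8.44 ± 0.886, Timp1 at 6.33 ± 5.58 and Mmp12 at 5.68 ± 2.45 CPM per kb (SD, n = 4). Timp1 and Mmp12, near the bottom of the order in chow, thus stood above Timp3 (4.10 ± 0.933) and Mmp2 (2.75 ± 0.651) by their means, although their ranges overlapped those of their neighbours.

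**Figure D1:**
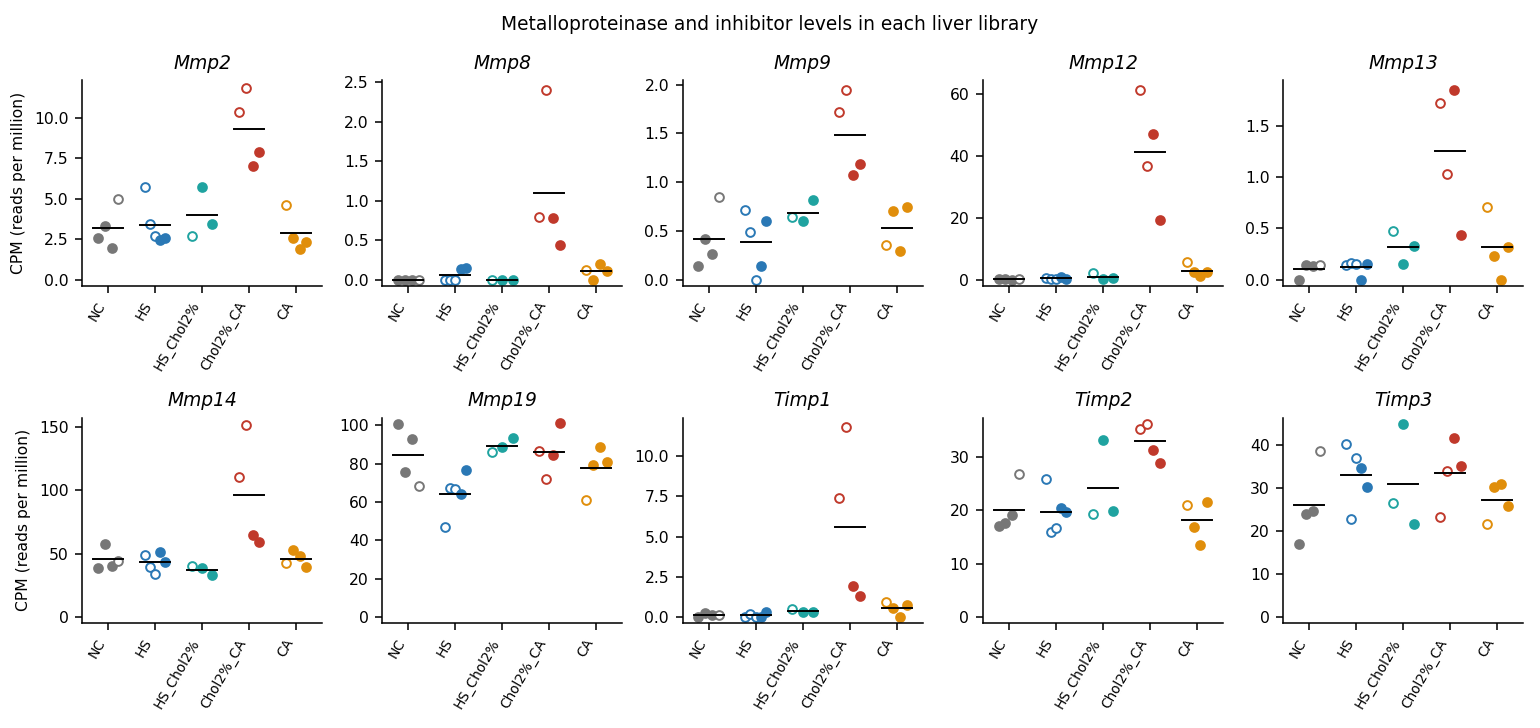
CPM of each of the 10 members in every library of the 5 diets (filled points, libraries with a positive trend of counts with transcript length; open points, negative trend; black line, mean of the diet). Mmp12 in the Chol2%_CA libraries sits between 19.3 and 61.3 CPM and above every other library, whereas Mmp19 and Timp3 overlap between that diet and chow.

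The first comparison set cholesterol plus cholic acid against chow. Mmp12, Timp1, Mmp9, Mmp2, Mmp14 and Timp2 rose, Mmp19 and Timp3 did not pass the test, and no member fell. All 6 that rose had every Chol2%_CA library above every chow library. The share of all tested genes with groups that did not overlap was not counted, here or in the comparisons below. Such separations are therefore descriptions of the members and were not set against other genes. Genes were tested with edgeR's quasi-likelihood test and called at a Benjamini-Hochberg adjusted p under 0.05 over all 12595 genes that passed the filter on low counts. In this comparison 15.0% of those genes were called higher and 9.35% lower. Of the 10 members 8 passed the filter, and Mmp8 and Mmp13 did not. Timp1 and Mmp9 passed it only through the Chol2%_CA libraries, so a difference from chow was built into their being tested. Mmp12 passed it through its Chol2%_CA and CA libraries. It had at most 0.286 CPM in chow and 0.952 in HS, below the filter's level of 1.31 CPM. In HS_Chol2% its highest library had 2.08 CPM and the median was 0.492. A difference from chow was thus built into the testing of Mmp12 too, and the count of 6 in 8 is a description. The median log2 fold change of the 8 was 1.31, against 0.00 over all genes tested. It includes these members, tested because they were high, and is a description as well.

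Mmp12, the macrophage elastase, lies on chromosome 9 (7344381 to 7369499, plus strand). It had 61.3, 36.8, 47.0 and 19.3 CPM in the 4 Chol2%_CA libraries and 0.286, 0.138, 0 and 0.142 CPM in chow. The chow values rest on 4 reads in all, against 1443 in Chol2%_CA, a pooled ratio of 365 with an exact 95% interval of 142 to 1341 that covers counting error only. Pooled ratios, here and below, use total reads and not the effective library sizes of CPM. The fitted fold change of Mmp12, which uses effective sizes, was 266. The fitted log2 fold change was 8.05 ± 0.70 (SE; edgeR adjusted p = 2.13e-07), and it was called in all 15 alternative fits, with values between 7.67 and 8.60. The gene on the other strand that overlaps the end of Mmp12, Mmp1b, had no reads in any library.

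Timp1, the inducible soluble inhibitor, lies on chromosome X (20870166 to 20874735, plus strand) inside an intron of Syn1, which is on the other strand. It had 7.42, 11.8, 1.95 and 1.30 CPM in Chol2%_CA and 0, 0.277, 0.130 and 0.142 CPM in chow. The libraries numbered 0 and 1 of Chol2%_CA were the high pair, and the other two lay several-fold lower but still above chow. The pooled ratio was 48.3 (95% interval 18.6 to 179), from 191 reads against 4, and the log2 fold change was 5.18 ± 0.88 (edgeR adjusted p = 0.000179). With only the libraries of positive length trend it was 3.42, and it was called in all 15 alternative fits. Syn1 itself had 0.275 ± 0.253 CPM in chow and 2.91 ± 1.14 in Chol2%_CA. The strand that was counted is not given in the sources used here, so reads of Timp1 and of the Syn1 intron cannot be told apart.

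Mmp14, the membrane-type protease that activates the proenzyme of Mmp2 and cuts fibrillar collagen, lies on chromosome 14 (54431612 to 54445364, plus strand). It had 111, 151, 64.9 and 59.1 CPM in Chol2%_CA and 39.0, 57.7, 40.3 and 44.5 in chow. The lowest Chol2%_CA library was thus just above the highest chow library, and the libraries numbered 0 and 1 were again the high pair. The log2 fold change was 1.09 ± 0.23 (edgeR adjusted p = 0.00152). Both high libraries had a negative length trend, and with only the positive-trend libraries the log2 fold change was 0.43, with an adjusted p of 0.0753.

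Mmp2 and Mmp9 are the gelatinases, which cut denatured collagen and basement membrane collagen. Mmp2 (chromosome 8, 92827291 to 92853420, plus strand) had 10.3, 11.8, 7.03 and 7.90 CPM in Chol2%_CA and 2.58, 3.32, 1.95 and 4.97 in chow. Its log2 fold change was 1.53 ± 0.34 (edgeR adjusted p = 0.00197), and it was called in all 15 alternative fits. Mmp9 (chromosome 2, 164940780 to 164955850, plus strand) had 1.72, 1.95, 1.07 and 1.19 CPM in Chol2%_CA and 0.143, 0.415, 0.259 and 0.852 in chow. Its groups did not overlap either, at a level of 12 reads in chow and 52 in Chol2%_CA. Its log2 fold change was 1.79 ± 0.53 (edgeR adjusted p = 0.0176). Mmp9 did not pass the filter in 9 of the 15 alternative fits, and without NC_0 the log2 fold change was 1.54 with an adjusted p of 0.0606.

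Mmp8 and Mmp13 are collagenases; Mmp8 is stored in neutrophil granules, and Mmp13 is the main interstitial collagenase of rodents. Mmp8 (chromosome 9, 7558456 to 7568485, plus strand) had no reads in the 4 chow libraries and 39 reads in Chol2%_CA, with 0.795, 2.41, 0.782 and 0.433 CPM. Against a floor of 3 reads over the chow group, Mmp8 was at least 13.1-fold higher. Mmp13 (chromosome 9, 7272514 to 7283331, plus strand) had 1.72, 1.03, 1.86 and 0.433 CPM in Chol2%_CA and 0, 0.138, 0.130 and 0.142 in chow, which is 45 reads against 3 and a pooled ratio of 15.2 (95% interval 4.87 to 76.3). All 4 Chol2%_CA libraries of both genes were above all chow libraries. In the fit without a filter edgeR gave adjusted p = 0.000599 for Mmp8 and 0.00228 for Mmp13.

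Mmp19 (chromosome 10, 128790910 to 128800824, plus strand) had 86.4, 72.1, 84.3 and 101 CPM in Chol2%_CA and 101, 75.7, 93.0 and 68.5 in chow. The ranges nearly coincided, and the log2 fold change was 0.03 ± 0.16 (edgeR adjusted p = 0.928). The gene Tmem198b overlaps its exons on the other strand and had 6.21 ± 1.09 CPM in chow and 6.29 ± 1.29 in Chol2%_CA.

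Timp2, the inhibitor that takes part in Mmp2 activation, had the smallest fold change of the called members. It lies on chromosome 11 (118301069 to 118355740, minus strand) and had 35.2, 36.2, 31.4 and 28.8 CPM in Chol2%_CA against 17.0, 17.6, 19.1 and 26.8 in chow. The log2 fold change was 0.71 ± 0.20 (edgeR adjusted p = 0.0135), and without Chol2%_CA_0 it was 0.64 with an adjusted p of 0.0520. Timp3, which stays bound to the matrix, lies on chromosome 10 (86300372 to 86349506, plus strand) and had 23.2, 33.9, 41.5 and 35.1 CPM in Chol2%_CA against 17.0, 23.8, 24.5 and 38.6. Its groups overlapped, and the log2 fold change was 0.36 ± 0.25 (edgeR adjusted p = 0.331). With only positive-trend libraries it was 0.80 with an adjusted p of 0.0391. Syn3, on the other strand of Timp3, had 1.18 ± 0.113 CPM in chow and 1.48 ± 0.700 in Chol2%_CA.

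**Figure D2:**
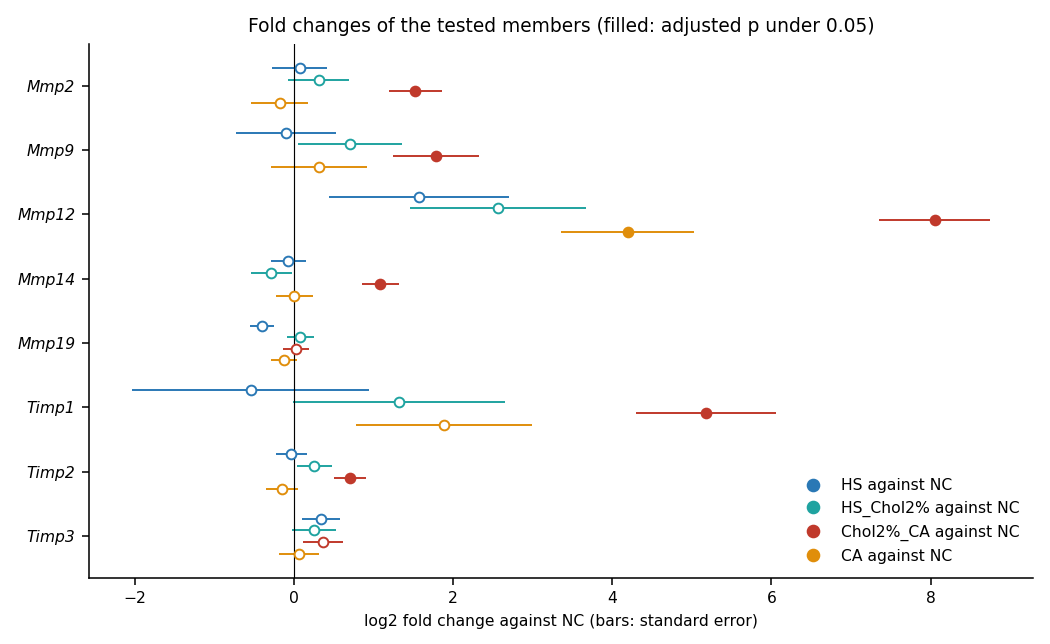
Log2 fold changes of the 8 tested members in each of the other diets against NC from the edgeR fit (colour, diet; filled points, adjusted p under 0.05; bars, SE). Mmp12 reaches 8.05 in Chol2%_CA and 4.20 in CA, and all points of HS and HS_Chol2% are open.

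Marker genes of cell types were read in the same libraries. In Chol2%_CA against NC 15.0% of all genes tested were called higher and 9.35% lower. The 13 genes listed for monocyte-derived macrophages (among them Itgax, Trem2 and Gpnmb) summed to 98.4 to 181 CPM in chow. In the Chol2%_CA libraries numbered 0 to 3 they summed to 1815, 2544, 844 and 696 CPM. Of these 13 genes 13 were called higher, 3 of them (Trem2, Gpnmb and Ly6c2) tested only because of these libraries. The list also holds the general macrophage genes Emr1, Csf1r, Cd68 and Lyz2, so its sum does not set these cells apart from Kupffer cells. Lyz2 alone had a mean of 638 CPM in Chol2%_CA. The pair of libraries that was high for Mmp14 and Timp1 was also high for these markers, and both of its libraries had a negative length trend. Mmp12 was highest in Chol2%_CA_0 and next highest in Chol2%_CA_2. The 7 resident Kupffer cell markers ran from 60.4 to 93.5 CPM in chow and from 540 to 1410 in Chol2%_CA, with 6 called higher. The 10 neutrophil markers summed to 0.143 to 1.42 CPM in chow and to 13.2, 63.4, 14.3 and 5.52 in Chol2%_CA. The second of these libraries was also the highest for Mmp8, while the neutrophil marker Ly6g had 2 reads over the diet and none in the others. Of the 10 stellate cell markers 3 were called higher, and their sum ran from 127 to 217 CPM in chow and from 221 to 249 in Chol2%_CA. Of 7 tested T, B and NK cell markers 6 were called higher. Cd3g and Cd8a, 2 of the 7, were tested only because of the Chol2%_CA libraries. All 9 markers summed to 2.98 to 10.4 CPM in chow and to 22.9, 56.0, 11.5 and 19.5 in Chol2%_CA. Of the bile duct markers 2 of 5 tested were called higher (sums 17.2 to 28.5 and 24.0 to 40.1 CPM), and of the sinusoidal endothelial markers 2 of 7 (138 to 267 and 107 to 315 CPM). The stellate cell, bile duct and sinusoidal endothelial sums were highest in Chol2%_CA_2 among the Chol2%_CA libraries. Hepatocyte markers summed to 127296 to 133148 CPM in chow and 60102 to 75901 in Chol2%_CA. The part of these markers in the changes of the members was not tested.

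In cholic acid without added cholesterol 1 member was called. Mmp12 had 5.64, 2.36, 1.09 and 2.34 CPM in the CA libraries, all above the chow libraries, and the log2 fold change was 4.20 ± 0.84 (edgeR adjusted p = 0.00273). From 101 reads against 4 the pooled ratio was 22.2 (95% interval 8.40 to 83.0). In this comparison 5.22% of genes were called higher and 4.61% lower, and the median of the 8 members was 0.03 against 0.01 over all genes. Mmp12 was called in each of the 14 alternative fits that tested it and was removed by the filter in the fit of CA and NC libraries only. No chow library reached the filter's level of 1.31 CPM, and Mmp12 was tested through its CA and Chol2%_CA libraries. A difference from chow was thus built into this test.

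No other member was called in CA. Mmp14 had 42.2, 52.8, 47.8 and 39.4 CPM, a log2 fold change of 0.01 ± 0.23 (edgeR adjusted p = 0.996), and Mmp2 had 4.58, 2.59, 1.88 and 2.34 CPM. The mean of Mmp9 was 0.525 ± 0.233 CPM (n = 4), that of Mmp19 was 77.6 ± 11.6, that of Timp2 was 18.2 ± 3.83 and that of Timp3 was 27.1 ± 4.37. Timp1 had 0.940, 0.589, 0 and 0.744 CPM, and its log2 fold change of 1.89 ± 1.11 did not pass the test (edgeR adjusted p = 0.350), while the pooled ratio, from 20 reads against 4, was 4.39 (95% interval 1.47 to 17.7, counting error only). Mmp8 had 4 reads in CA and none in chow, and Mmp13 had 11 against 3. Genes of the monocyte-derived macrophage list, some of them general macrophage genes, summed to 181 to 413 CPM in CA, with 5 of 13 called higher. Kupffer cell markers summed to 159 to 484 CPM, with 6 of 7 called higher, beside 5.22% of all genes. The part of these markers in the Mmp12 value was not tested.

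Adding cholesterol to cholic acid was followed by comparing Chol2%_CA with CA, which uses the same Chol2%_CA libraries as the comparison with chow. Again Mmp2, Mmp9, Mmp12, Mmp14, Timp1 and Timp2 were called higher, with groups that did not overlap, beside 13.4% of all genes called higher and 7.80% lower. As in the comparison with chow, Mmp9 and Timp1 were tested only because of their Chol2%_CA libraries, so the count is a description. Mmp12 had a log2 fold change of 3.86 ± 0.46 (edgeR adjusted p = 1.71e-05), Timp1 of 3.29 ± 0.69 (adjusted p = 0.00211) and Mmp2 of 1.70 ± 0.34 (adjusted p = 0.00135). For Mmp9, Mmp14 and Timp2 it was 1.47 ± 0.49, 1.08 ± 0.23 and 0.85 ± 0.20 (edgeR adjusted p = 0.0397, 0.00247 and 0.00495). With only positive-trend libraries 3 members were called; Mmp14 then had 0.40 (adjusted p = 0.0842) and Timp1 had 1.87 (adjusted p = 0.0668). Mmp9 without a filter on low counts had 1.42 (adjusted p = 0.0793). It did not pass the filter in 9 of the 15 alternative fits, among them every fit that left out 1 library. Mmp19 had 0.15 ± 0.16 and Timp3 had 0.30 ± 0.25, with adjusted p of 0.576 and 0.449. For the untested collagenases the pooled ratio of Chol2%_CA to CA was 11.2 (95% interval 4.05 to 43.3) for Mmp8 and 4.71 (2.40 to 10.1) for Mmp13.

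**Figure D3:**
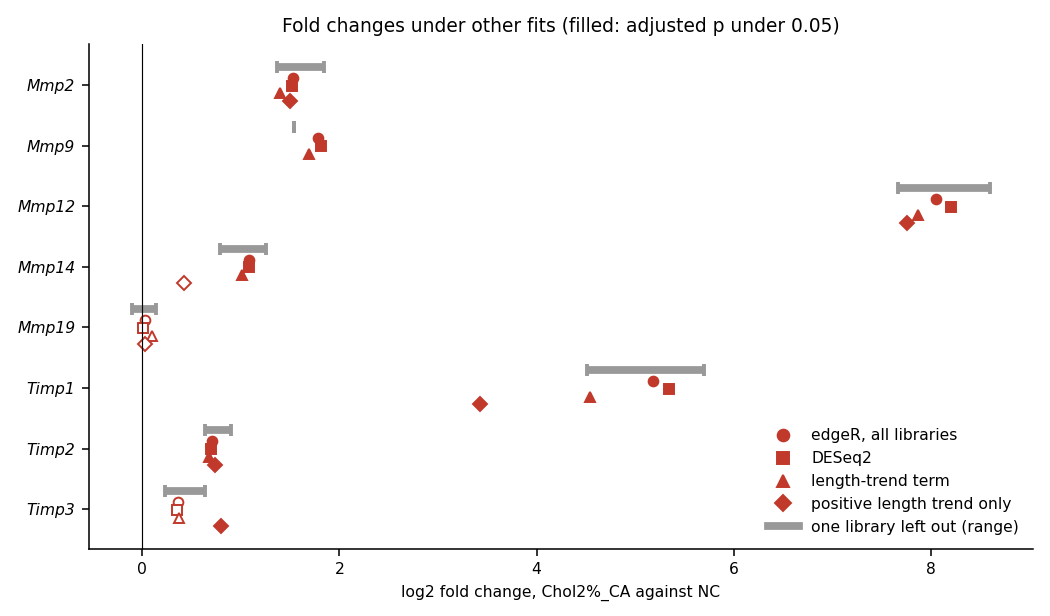
Log2 fold changes of the 8 tested members in Chol2%_CA against NC in the edgeR fit of all libraries, with DESeq2, with a length-trend term and with positive-trend libraries only (symbols by fit; filled, adjusted p under 0.05; grey bars, range when 1 library is left out). Mmp14 goes from 1.09 to 0.43 with the positive-trend libraries only, where Mmp9 has no point because it did not pass the filter.

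No member was called in sucrose, with or without cholesterol. In HS against NC 0.214% of genes were called higher and 0.437% lower, and DESeq2 also called no member. At an unadjusted edgeR p under 0.05 there were 1398 of all 12595 genes tested and 1 of the 8 tested members, Mmp19. Mmp19 had 46.8, 67.1, 66.5, 64.2 and 76.8 CPM in HS, which overlapped chow, and a log2 fold change of −0.39 ± 0.15 (edgeR adjusted p = 0.321). Mmp12 had 0.569, 0.163, 0.157, 0.952 and 0.300 CPM in HS, with a log2 fold change of 1.57 ± 1.13 (adjusted p = 0.627). In HS the means were 3.36 ± 1.36 CPM for Mmp2, 43.2 ± 6.92 for Mmp14, 19.7 ± 3.95 for Timp2 and 32.9 ± 6.77 for Timp3 (n = 5).

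In HS_Chol2% against NC 1.71% of genes were called higher and 0.564% lower, again with no member among them by edgeR or DESeq2. At an unadjusted edgeR p under 0.05 there were 1467 of all 12595 genes tested and 1 of the 8 tested members, Mmp12. Mmp12 had 2.08, 0.151 and 0.492 CPM, so that the library numbered 0 carried most of its reads, and a log2 fold change of 2.57 ± 1.10 (edgeR adjusted p = 0.342). Timp1 had 0.479, 0.302 and 0.328 CPM from 7 reads, with a pooled ratio to chow of 2.88 (95% interval 0.731 to 13.4). The highest chow and HS libraries had 0.277 and 0.300 CPM, just below these values, and the diets held 4 and 3 reads, too few to separate them. HS_Chol2% against HS called 1.60% of genes higher and 0.651% lower and, by edgeR or DESeq2, no member. An unadjusted edgeR p under 0.05 was found for 1653 of all 12595 genes tested and for 1 of the 8 tested members, Mmp19. Mmp19 had 86.1, 88.7 and 93.2 CPM in HS_Chol2%, all above the HS libraries; its log2 fold change of 0.47 ± 0.16 did not pass the test (edgeR adjusted p = 0.176). The HS_Chol2% means were 3.97 ± 1.58 CPM for Mmp2, 37.3 ± 3.64 for Mmp14, 24.1 ± 7.80 for Timp2 and 31.0 ± 12.3 for Timp3 (n = 3), and Mmp8 had no reads there, where 3 reads would be 0.157 CPM. Syn3, on the other strand of Timp3, had 4.61 ± 1.19 CPM in HS_Chol2% against 1.18 ± 0.113 in chow.

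Whether cholesterol changed the members more with cholic acid than with sucrose was tested as the difference of Chol2%_CA minus CA and HS_Chol2% minus HS. Only Mmp14 was called, with a difference of 1.30 ± 0.34 on the log2 scale (edgeR adjusted p = 0.0271), beside 2.47% of genes called higher and 3.53% lower. Mmp14 was 45.5 ± 5.94 CPM in CA and 96.5 ± 43.2 in Chol2%_CA, and 43.2 ± 6.92 in HS and 37.3 ± 3.64 in HS_Chol2%. Every HS_Chol2% library stood apart in light-strand mitochondrial tRNA reads. Here and in the HS_Chol2% comparisons above, that trait and the diet cannot be told apart. The call was lost without HS_Chol2%_0, HS_Chol2%_1, HS_Chol2%_2, Chol2%_CA_0, CA_2 or CA_3 (adjusted p = 0.0532, 0.0791, 0.0737, 0.0662, 0.0652 and 0.0776) and with positive-trend libraries only (0.79, adjusted p = 0.0575). Mmp12 had 2.87 ± 1.03 (edgeR adjusted p = 0.108) and was called by DESeq2 (2.81, adjusted p = 0.0347), with positive-trend libraries only (5.09, adjusted p = 0.0394), without HS_Chol2%_0 (4.31, adjusted p = 0.0388) and without CA_0 (3.43, adjusted p = 0.0300). Mmp2 had 1.46 ± 0.50 (adjusted p = 0.0912) and was called without CA_0 (1.78, adjusted p = 0.0258). Timp1 and Timp2 had 1.43 ± 2.01 and 0.56 ± 0.29 (adjusted p = 0.715 and 0.281).

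Summed per length, the 7 proteases and the 3 inhibitors both stood above chow in every Chol2%_CA library. The protease sum ran from 28.6 to 35.8 CPM per kb in chow and from 44.2 to 56.3 in Chol2%_CA, and the inhibitor sum from 6.47 to 11.8 and from 13.2 to 26.8. The ratio of proteases to inhibitors was 4.08 ± 1.28 in chow and 2.79 ± 0.520 in Chol2%_CA (n = 4 each), and the ranges of 2.43 to 5.54 and 2.10 to 3.36 overlapped. In CA the ratio was 3.66 ± 0.760, in HS 2.99 ± 0.655 and in HS_Chol2% 3.39 ± 0.930. Mmp12 held 0 to 0.110% of the protease sum in chow and 6.02 to 15.1% in Chol2%_CA, while Mmp19 held 66.4 to 79.4% and 36.2 to 64.7%. Timp1 held 0 to 4.02% of the inhibitor sum in chow and 11.1 to 49.7% in Chol2%_CA. These sums are of transcripts and were given no test.

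**Figure D4:**
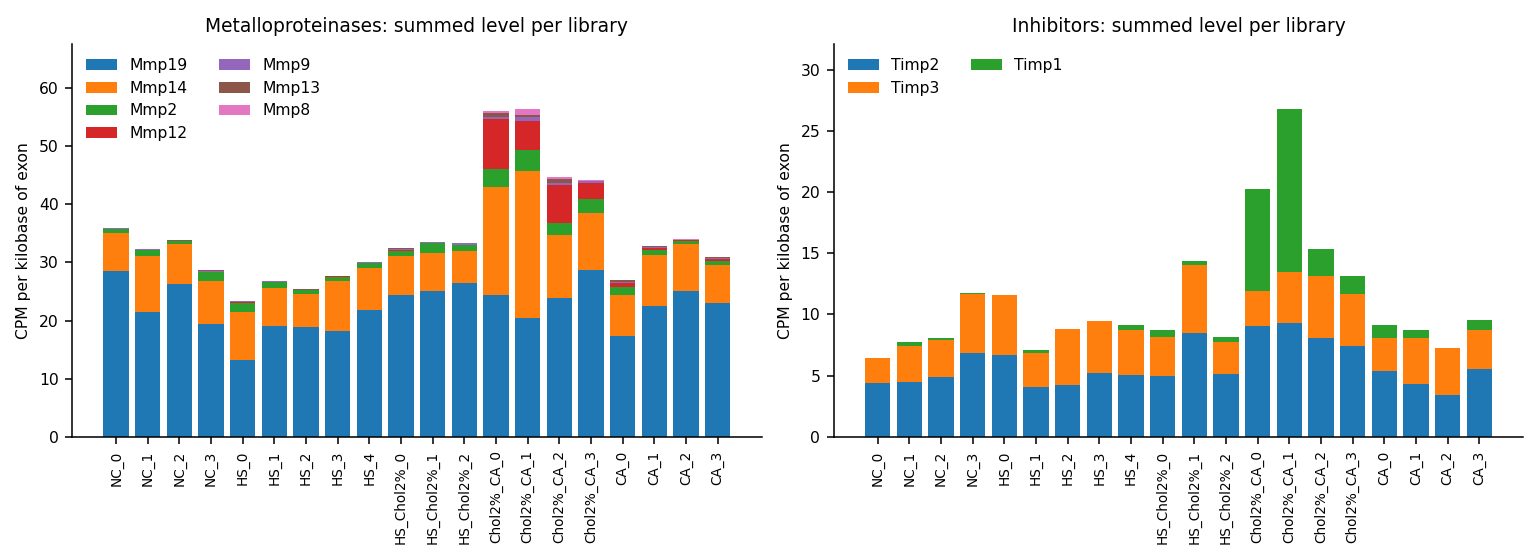
Summed levels of the 7 proteases (left) and the 3 inhibitors (right) in each library, in CPM per kb of exon, as stacked bars coloured by gene. Both sums in the 4 Chol2%_CA libraries, from 44.2 and from 13.2 CPM per kb, lie above all chow libraries, while 1 HS_Chol2% library reaches 14.3 for the inhibitors.

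Mmp8, Mmp12 and Mmp13 lie in a cluster of 10 metalloproteinase genes on chromosome 9 (7272514 to 7699585). Mmp1a, Mmp1b and Mmp10 had no reads in any library used, Mmp3 and Mmp20 had at most 3 in all, and Mmp12, Mmp27 and Mmp7 passed the filter. Mmp7, the small matrilysin, had 4 reads in chow, 107 in Chol2%_CA and 5 in CA, with a log2 fold change against chow of 4.29 ± 0.78 (edgeR adjusted p = 0.000319). Mmp27 had 6, 143 and 37 reads, with 4.18 ± 0.71 (adjusted p = 0.000181). Of the 17 family genes that are not members, 4 were tested, and these 2 were called higher against chow, beside 15.0% of all genes tested. Both passed the filter only through the Chol2%_CA libraries, so a rise was built into their being tested. Mmp15, a membrane-type protease at 14.4 ± 4.95 CPM per kb in chow, had 0.13 ± 0.23 (adjusted p = 0.743). Mmp23, which passed the filter also without the Chol2%_CA libraries, had 1.02 ± 0.49 (adjusted p = 0.153), and its groups overlapped. In Chol2%_CA against CA 3 of the 4 were called higher, beside 13.4% of all genes: Mmp7, Mmp27 and Mmp23. There Mmp23 had 1.78 ± 0.51 (edgeR adjusted p = 0.0177). Mmp24 had no reads in chow, 20 in HS_Chol2% and 11 in Chol2%_CA, and BC029722 overlaps its exons on the other strand.

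**Figure D5:**
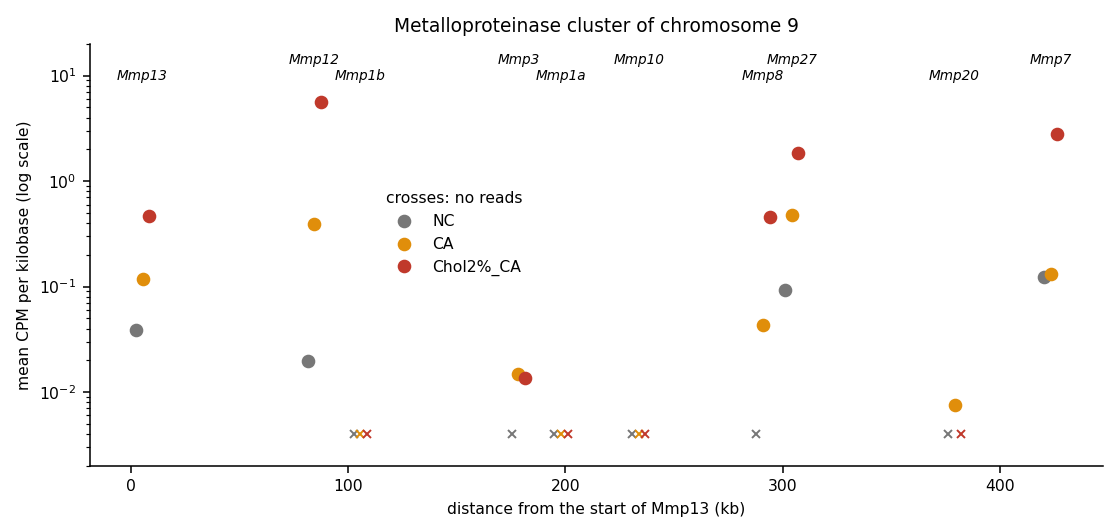
Mean CPM per kb of the chromosome 9 cluster genes in NC, CA and Chol2%_CA, on a log axis, against the distance of each gene's middle from the Mmp13 start in kb (points set side by side by diet; crosses, no reads). Mmp12 is the highest gene of the cluster in Chol2%_CA, at 5.68 CPM per kb.

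The genes around the family were taken from lists chosen by role. Of 12 tested genes of plasminogen and proprotein activation, the cascade that removes propeptides, 4 were called higher and 1 lower in Chol2%_CA against NC, beside 15.0% and 9.35% of all genes tested. Plaur and Plat, 2 of the 12, were tested only because of the Chol2%_CA libraries. Plaur, which passed the filter only through Chol2%_CA and encodes the urokinase receptor, rose from 0.411 ± 0.300 to 5.25 ± 2.84 CPM (log2 fold change 3.61 ± 0.53, edgeR adjusted p = 3.99e-05), and Plau, urokinase, by 3.02 ± 0.51 (adjusted p = 0.000168). Serpine2, an inhibitor of these proteases, fell in CA by 2.25 on the log2 scale (adjusted p = 0.000157) and was 2.77 ± 0.33 higher in Chol2%_CA than in CA (adjusted p = 1.34e-05). Of 7 other inhibitors and clearance genes 2 were higher and 1 lower, beside the same shares of all genes: Thbs2 and Thbs1 (1.92 ± 0.43 and 1.41 ± 0.41), matrix proteins that bind Mmp2, rose, and Tfpi2 fell by 1.05.

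The other matrix proteases and the substrates are given beside the same 15.0% of all genes called higher and 9.35% lower in Chol2%_CA against NC. Of 15 other matrix proteases, 2 of which (Adam8 and Ctsk) were tested only because of the Chol2%_CA libraries, 10 were higher and none lower (median log2 fold change 0.89, all genes 0.00); the cathepsin Ctss rose from 14.0 ± 6.65 to 370 ± 236 CPM (4.72 ± 0.52, edgeR adjusted p = 2.09e-06), and Adam17, which sheds Tnf, by 0.89 ± 0.14 (adjusted p = 8.64e-05). Of 21 matrix substrates 15 were higher and none lower (median 0.92). Col3a1, a fibrillar collagen, rose from 34.7 ± 12.5 to 161 ± 77.7 CPM (2.21 ± 0.35, adjusted p = 8.53e-05), and Col5a2 and Col6a3 by 2.18 ± 0.31 and 1.42 ± 0.22. In CA against NC 1 protease, Ctss (1.99 ± 0.47, adjusted p = 0.00896), and 1 substrate, Nid1 (1.17 ± 0.28, adjusted p = 0.0111), were higher, near the 5.22% of all genes. Of 11 cytokine and AP-1 genes 4 were higher and 2 lower in Chol2%_CA against NC (15.0% and 9.35% of all genes), among them Tnf, tested only because of its Chol2%_CA libraries (5.71 ± 0.79, adjusted p = 2.09e-05) and Tgfb1 (2.17 ± 0.32, adjusted p = 3.50e-05). In HS against NC Fos fell by 2.19 and Fosl2 by 0.90 (adjusted p = 0.0317 and 0.0248), while no protease or substrate of the lists was called.

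The tested genes with the pattern most like a member's were ranked by the root mean square difference of centred log2(CPM + 0.5) over the 20 libraries. For Mmp12 they were Lyz2 (0.686), Clec7a (0.691) and Pla2g7 (0.766), where Mmp12 itself varied by 2.23 around its mean. For Timp1 they were Bcl2a1b (0.303), Cd40 (0.344) and Tnf (0.369), against 1.25 for Timp1 itself. In chow these genes had means of 0.0324, 0.141 and 0.100 CPM, and Timp1 had 0.137. Such values lie below the 0.5 added before the log, which flattens differences between them. Timp1 and Tnf were tested only because of their Chol2%_CA libraries, so this likeness is a description. For Mmp14 they were Npc2 (0.219), Pbxip1 (0.229) and Ifngr1 (0.244), against 0.526, and for Timp2 they were Pam (0.186), Pea15a (0.213) and Prelp (0.218), against 0.397. Lyz2, also a macrophage list marker, went from 14.0 CPM in chow to 638 in Chol2%_CA and 60.6 in CA.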

How the data were processed

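Gene expression was measured by single-end 50 bp RNA-seq of total liver RNA in 20 libraries of 5 diets. The authors deposited raw read counts per gene symbol; per the submitters' processing notes the aligner was STAR 2.6.1c on mm10, and per the labels it also made the gene counts. The strand counted and the joining of gene models are not given in the sources used here. The table had 23 value columns for 24 labelled samples; 3 of them fit no label and were left out. Columns were matched to a diet, not to a single sample; 1 sample titled HS carries a normal chow label and could not be set apart.

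Counts were normalized by TMM, filtered with filterByExpr and fitted with edgeR 4.0.16 (R 4.3.3) in robust quasi-likelihood models with 1 mean per diet over all 20 libraries. CPM used effective library sizes, with a median total of 7639777 reads. Intervals are exact binomial at 95% and, like the floor of 3 reads per group, cover counting error only. Pooled ratios, their intervals and the floor use total reads, without the TMM factors. Mmp19, for example, had a pooled ratio of 1.27 in Chol2%_CA against NC and a fitted fold change of 1.02. The procedure was tested on simulated data. Alternatives were DESeq2 1.42.0, RLE scaling, other filters, only the compared diets, leaving out each library, and 2 treatments of the length trend. The length trend is the sign of the slope of a library's log2 CPM deviation on log2 transcript length over 10753 genes.

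The members, lists and tests were chosen with earlier results of these data known. All 10 members are named. Of each list the text names called genes with the smallest adjusted p, and genes the results turn on; some, such as Mmp15 and Mmp24, were named after their values were seen. Adgre1 was read under its table name Emr1. Coordinates are 1-based.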

Additional observations from a re-analysis of the deposited data

Results flagged for a closer look

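The difference between the cholesterol effects with cholic acid and with sucrose was 1.30 on the log2 scale for Mmp14 (edgeR adjusted p = 0.0271), by the test of that difference. Among 55 groups of 4 or 5 libraries, 4 had a library far from the others, where chance gives about 1 in 20. Mmp13 was at 0 CPM in NC_0 and at 0 CPM in HS_3, below the other libraries of each diet. Mmp27 was at 0 CPM in NC_3. Mmp7 had 0.285 CPM in HS_0, the only HS library with reads of it. These 4 values rest on a few reads or none.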

How the results depend on the processing

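No called member changed direction and no member was called lower under the alternatives run, but calls were lost or gained: in Chol2%_CA against NC Mmp14 and Timp2 were each called in 14 of 15 fits and Timp3 in 1, and the Mmp14 interaction was called in 16 of 23. Main counts of all genes called were 82 (HS against NC), 287 (HS_Chol2% against NC), 3063 (Chol2%_CA against NC), 1238 (CA against NC), 283 (HS_Chol2% against HS), 2676 (Chol2%_CA against CA) and 756 (interaction). DESeq2 gave 194 for HS against NC, 549 for HS_Chol2% against NC, 493 for HS_Chol2% against HS, and 2 members in the interaction instead of 1. Without a filter HS_Chol2% against NC gave 436. Fits of only the compared diets gave 1586 for Chol2%_CA against CA and 0 members for CA against NC, since Mmp12 was filtered out. The length-trend term gave 143 for HS against NC, 503 for HS_Chol2% against NC, 1999 for CA against NC and 438 for HS_Chol2% against HS. Positive-trend libraries only gave 379, 617 and 2966 for HS, HS_Chol2% and CA against NC, 1416 for the interaction and 3 members, in place of 6, for Chol2%_CA against CA. Leaving out 1 library gave 35 to 158 genes for HS against NC, 183 to 375 for HS_Chol2% against NC, 2385 to 3414 for Chol2%_CA against NC (4 to 5 members), 799 to 1311 for CA against NC (1 member), 186 to 281 for HS_Chol2% against HS, 1678 to 3218 for Chol2%_CA against CA (5 members) and 448 to 1315 for the interaction (0 to 3 members). Mmp9 passed the filter in no leave-one-out fit of Chol2%_CA against CA, and in 1 of those against NC, where it was not called. Except where noted, the cause was not tested. No paired analysis was possible because the table's columns count from 0 and do not carry the labels' replicate numbers. Depth limits Mmp8, Mmp13, Mmp12, Mmp9 and Timp1, which had 12 reads or fewer in chow.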
